A study of Mus musculus with 4 samples.

Results

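The genes of the translation initiation factors, the proteins that bring a ribosome to an mRNA and set it on the start codon, were compared between long-term and short-term mouse haematopoietic stem cells. Every gene with an array probe set annotated to its symbol alone, and with a symbol starting Eif1 to Eif6, was taken, apart from the Eif2ak kinases and Eif2s3y. That gave 42 genes of the 18193 with such a probe set. They had 118 of the 45037 probe sets, a probe set being the group of short probes on the array that reads 1 transcript region. The brightest probe set over the 4 arrays stood for each gene, and 41 of the 42 were bright enough to be tested. The exception was the RNA helicase gene Eif4a3, with intensities of 6.14 and 9.77 on the LT-HSC arrays and 18.1 and 12.3 on the ST-HSC arrays. Among the core factors, Eif1, Eif2s1, Eif3g, Eif3j1, Eif3j2 and Eif4g1 had no probe set that the rule could use and were not analysed here.

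The study hybridised RNA to Affymetrix mouse arrays, 2 for the long-term cells (LT-HSC) and 2 for the short-term cells (ST-HSC). LT-HSC were bone marrow cells sorted as Lin-cKit+Sca1+CD34-CD135-. The gate for ST-HSC differed in being CD34+. The donors of all 4 samples were control mice without the MxCre transgene, on a C57BL/6 background, and each had 7 injections of poly(I:C), a double-stranded RNA mimic. The mice were 7.5 weeks old and 4 weeks past the last injection for LT-HSC replicates 1 and 2 and for ST-HSC replicate 2. For ST-HSC replicate 3 they were 8.5 weeks old and 3 weeks past it. Both ST-HSC samples carry a tissue label that names LT-HSC although it lists CD34+, and the titles were followed. Cd34 intensity was 18.3 and 23.5 on the LT-HSC arrays and 841 and 1142 on the ST-HSC arrays (difference -4.78, adjusted p = 0.000473). Of the 8 gate and stem cell genes tested, Cd34 and Kit (-1.02, adjusted p = 0.0498) were lower in LT-HSC, and 6 did not pass, with Procr at 0.52 and Slamf1 (-0.25), Mecom (-0.43), Hlf (-0.44), Meis1 (-0.81) and Flt3 (-1.37) below 0. RNA passed 2 rounds of amplification, and nothing in the labels says which replicates came from separate mice, so the p-values measure only the spread between these arrays.

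Initiation starts when eIF2, charged with GTP, carries the initiator methionine tRNA to the small ribosomal subunit, together with eIF1, eIF1A, eIF3 and eIF5. The cap-binding protein eIF4E, the scaffold eIF4G and the helicase eIF4A bring in the mRNA, and the 4E-binding proteins hold eIF4E back unless mTORC1 phosphorylates them. After the start codon is found, eIF5B joins the large subunit and eIF2B recharges eIF2, a step that the eIF2 kinases block under stress. Adult haematopoietic stem cells are known for a low rate of protein synthesis relative to the progenitors they form.

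Markers of other cell types differed between the arrays, in lists to be read against the 7.92% of all genes that passed as higher in LT-HSC and the 6.41% that passed as lower. All 7 plasma cell genes were higher in LT-HSC, with summed intensities of 43004 and 43528 against 1693 and 2785 in ST-HSC, and 4 of 8 B cell genes were higher (sums 5090 and 5844 against 586 and 891). The 8 maturing granulocyte genes summed to 3841 and 504 on the LT-HSC arrays, against 3554 and 49897 on the ST-HSC arrays, and none passed the test, with 3 lower at unadjusted p under 0.05. Of 4 T and NK cell genes tested, 3 were higher and 1, Nkg7, was lower (sums over the list 347 and 827 against 1320 and 1448). Of 11 dividing cell genes, 9 were lower in LT-HSC (sums 5087 and 6366 against 16718 and 18872). Of 10 growth response genes, a list that holds several nucleolar genes, 6 were lower, 1 higher and 3 did not pass. Their differences ran from -2.38 for Nop58 to 0.68 for Odc1. None of the marker genes in these lists was at 0 on any array. Of 3 erythroid genes tested, none passed and all had a difference below 0. The erythroid list summed to 97.7 and 194 on the LT-HSC arrays, against 147 and 786 on the ST-HSC arrays. ST-HSC replicate 3 also stood apart in its 3′ over 5′ intensity ratio, a measure of RNA quality, with less 3′ bias than the others. The ratio was 6.65 for Actb and 6.59 for Gapdh, against 13.9 to 19.6 on the other 3 arrays. All 4 arrays had more 3′ than 5′ signal for both controls. Across all probe sets the arrays correlated at 0.960 within LT-HSC, 0.943 within ST-HSC and 0.847 to 0.900 between groups. The part of these differences in the results that follow was not tested, and in bulk RNA fewer cells of a type and less RNA per cell cannot be told apart.

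Values are given as deposited intensities in the order LT-HSC replicate 1 and 2, then ST-HSC replicate 2 and 3. Differences are LT-HSC minus ST-HSC on the log2(intensity + 16) scale after quantile normalization, from limma, with p-values adjusted over all 27022 probe sets tested and a threshold of 0.05. Levels of different probe sets were not compared.

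Of the 41 factor genes tested, 2 passed, both lower in LT-HSC than in ST-HSC, and of the 39 others 26 had a difference below 0, 12 of them below -0.5. Eif4e, the cap-binding protein, and Eif5a, which helps the ribosome through the first peptide bonds and through stretches of proline, were those that passed. No factor gene passed as higher in LT-HSC by limma, and 1 (2.44%) had an unadjusted p under 0.05 in that direction, beside 15.1% of all genes tested. In the lower direction 12 (29.3%) did, beside 18% of all genes. The 2 lower genes are 4.88% of the 41 tested, beside 6.41% of all 12832 genes tested. Genes higher in LT-HSC made up 7.92% of all genes and 0% of the factor genes. The share of factor genes past the threshold is thus near or below that of genes in general.

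The difference was below 0 for 28 of 41 factor genes, 68.3%, beside 54.1% of all genes tested. Both LT-HSC arrays lay below both ST-HSC arrays for 22 of 41 (53.7%), beside 35.7% of all genes, and above them for 8 (19.5%), beside 28.6%. These counts are of normalized values and can differ in deposited intensity. Eif3i, counted as below, had deposited intensities of 4354 and 4681 on the LT-HSC arrays, against 3964 and 3733 on the ST-HSC arrays. The median difference of the factor genes was -0.37, and that of all genes was -0.08, with quartiles of -0.60 and 0.46. With median centring in place of quantile normalization the factor genes' median was -0.07 and that of all genes -0.03, 23 of 41 factor genes lay below 0, and 0 passed in either direction, beside 9.16% of all genes higher and 7.59% lower. The distance between the factor genes' median and that of all genes was thus -0.29 with quantile normalization and -0.04 with median centring.

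**Figure D1:**
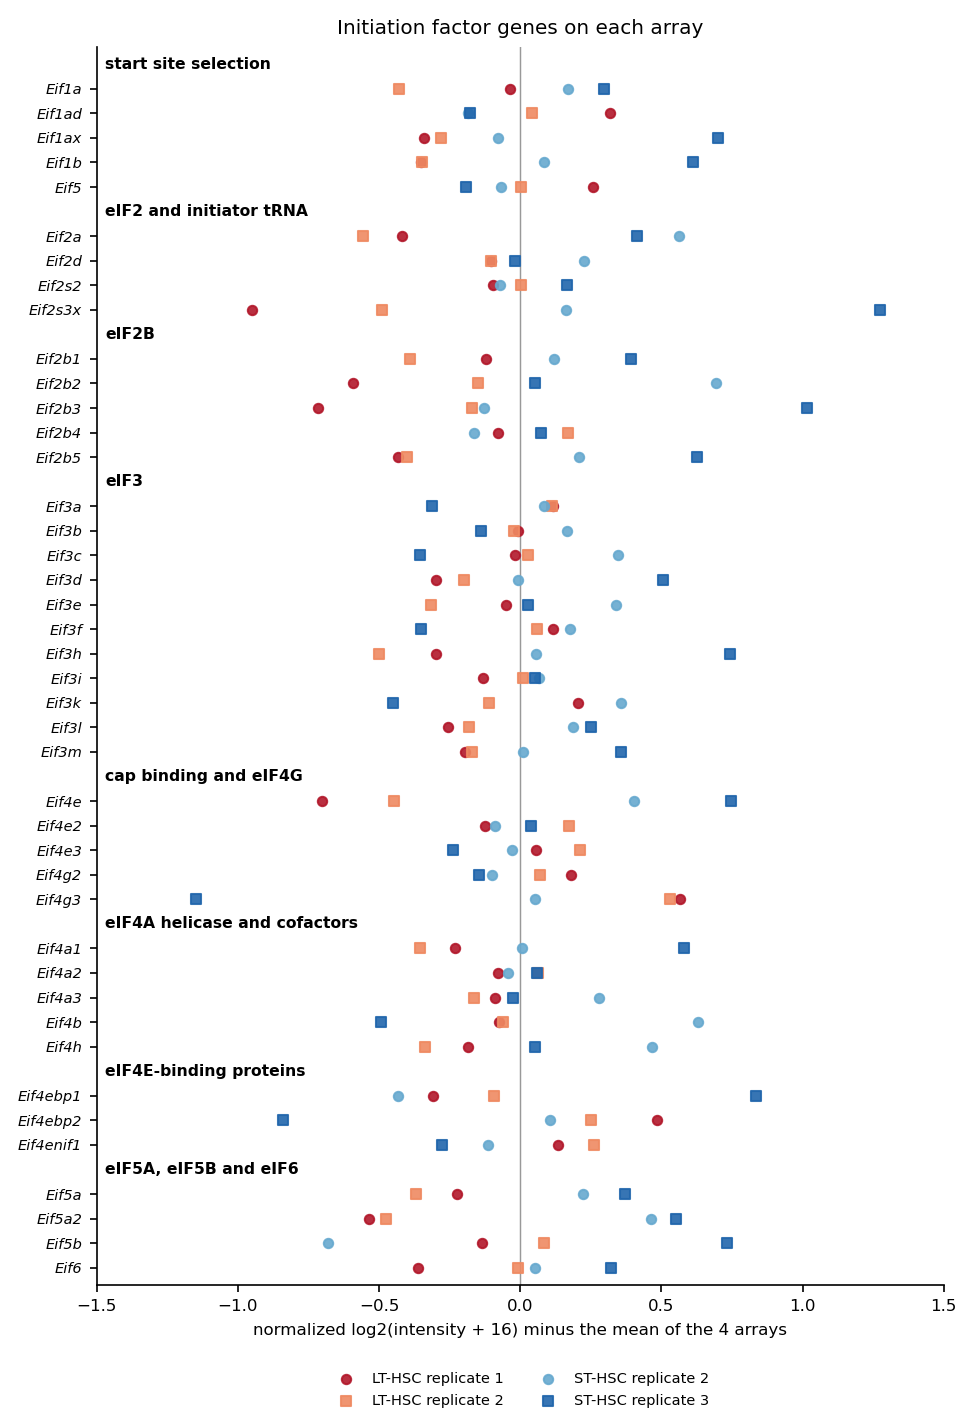
Normalized log2(intensity + 16) of the 42 factor genes on the 4 arrays, by complex, each gene as the deviation from its own mean over the arrays, with LT-HSC in red and orange and ST-HSC in blue. Among the genes that passed, Eif4e and Eif5a have both LT-HSC points below both ST-HSC points.

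Eif4e binds the cap of an mRNA and is the point at which mTORC1 meets the initiation machinery. Its intensities were 300.1 and 374 on the LT-HSC arrays, against 656 and 872 on the ST-HSC arrays. Both LT-HSC arrays lay below both ST-HSC arrays. The normalized levels were 8.48 ± 0.18 in LT-HSC and 9.63 ± 0.24 in ST-HSC (SD, n = 2 each), a difference of -1.15 (SE 0.27, 95% interval -1.80 to -0.50, adjusted p = 0.0414), or a level 2.22-fold lower in LT-HSC. A further probe set for Eif4e ran the same way at -1.22 without passing (adjusted p = 0.119), and the remaining ones gave -0.02 and 0.44. The call was lost with median centring (-1.03, adjusted p = 0.0738), with no filter, with no intensity trend and when either LT-HSC array was left out. Across the 13 alternative settings the adjusted p ran between 0.000206 and 0.399, and 7 passed. When all probe sets of a gene were averaged, the difference was -0.49 (adjusted p = 0.268).

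The other cap-side genes had differences above 0. Eif4g3, a scaffold paralog, read 933 and 883 on the LT-HSC arrays, against 582 and 256 on the ST-HSC arrays, a difference of 1.10 (SE 0.40, adjusted p = 0.124). The ST-HSC arrays were 1.20 apart on the log2 scale, ST-HSC replicate 3 being the lower, while the LT-HSC arrays were 0.03 apart. The gene passed when either ST-HSC array was left out, at 1.76 without replicate 2 and 0.51 without replicate 3. Eif4e2 (0.05), Eif4e3 (0.27) and Eif4g2 (0.25), a cap homolog pair and an eIF4G-like scaffold, did not pass either. This group of 5 had 1 member lower and 4 that did not pass, with a median of 0.25 (0.44 with median centring and 0.09 with the mean of all probe sets).

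Among the helicase genes, Eif4a1 and Eif4a2 encode close paralogs of the enzyme that unwinds mRNA near the cap. Eif4a1 had intensities of 1542 and 1348 on the LT-HSC arrays, against 1501 and 2262 on the ST-HSC arrays, a difference of -0.59 (SE 0.24, adjusted p = 0.158). In deposited intensity the groups overlap, since 1542 lies above 1501, and after normalization both LT-HSC arrays lay below both ST-HSC arrays. A second Eif4a1 probe set did pass: 321 and 348 on the LT-HSC arrays, against 688 and 757 on the ST-HSC arrays, a difference of -1.09 (SE 0.25, adjusted p = 0.0379). Eif4a2 read 1747 and 1913 on the LT-HSC arrays and 1494 and 1681 on the ST-HSC arrays, a difference of -0.02 (SE 0.19, interval -0.46 to 0.43). The helicase cofactor Eif4h was at -0.52 (adjusted p = 0.0997), and Eif4b at -0.14 with its ST-HSC arrays 1.12 apart. Further Eif4b probe sets ran the other way, at 0.79 (adjusted p = 0.104) and 0.32, without passing. That at 0.79 read 455 and 450 on the LT-HSC arrays, against 282 and 245 on the ST-HSC arrays. None of the 4 tested helicase and cofactor genes passed by its brightest probe set, with 2 at unadjusted p under 0.05 as lower and 0 as higher.

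The 4E-binding proteins restrain eIF4E. Eif4ebp1 had 474 and 555 on the LT-HSC arrays, against 433 and 1046 on the ST-HSC arrays, a difference of -0.40 (SE 0.42, adjusted p = 0.560), and the ST-HSC arrays were 1.27 apart. Eif4ebp2 had 474 and 397 on the LT-HSC arrays, against 370 and 177 on the ST-HSC arrays, a difference of 0.74 (SE 0.38, adjusted p = 0.236). Neither passed, and for each the interval of the difference spans 0. The sign of each turned with the probe set. Further probe sets were at 0.64 and -0.34 for Eif4ebp1, and at -0.75, -0.10 and 0.14 for Eif4ebp2, none passing. Eif4enif1, which carries eIF4E into the nucleus, was at 0.39 and did not pass. Of the 3 genes, 0 passed, with 0 at unadjusted p under 0.05.

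eIF2 carries the initiator tRNA. Its gamma subunit gene Eif2s3x had the lowest difference of the 41 factor genes with all 4 arrays. Without ST-HSC replicate 3 it was at -0.87, with Eif2b2 (-1.09), Eif2a (-1.05) and Eif4e (-0.97) among the genes below it. Intensities were 217 and 325 on the LT-HSC arrays, against 502 and 1119 on the ST-HSC arrays, and both LT-HSC arrays lay below both ST-HSC arrays. The difference was -1.44 (SE 0.41, interval -2.42 to -0.46, adjusted p = 0.0669) and did not pass, with the ST-HSC arrays 1.11 apart on the log2 scale. Eif2a, an initiation factor that can deliver tRNA without eIF2, had 227 and 218 on the LT-HSC arrays, against 479 and 445 on the ST-HSC arrays, a difference of -0.98 (adjusted p = 0.0636). Both missed the threshold by a small margin. Eif2d was at -0.21, and the beta subunit Eif2s2 at -0.09 with overlapping groups. None of the 4 genes passed, with 2 at unadjusted p under 0.05 as lower and 0 as higher, and their median was -0.59 (-0.34 with the mean of all probe sets).

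eIF2B is the exchange factor that recharges eIF2. Eif2b3, its gamma subunit gene, read 38.5 and 82.6 on the LT-HSC arrays, against 92.9 and 196 on the ST-HSC arrays, a difference of -0.89 (SE 0.45, adjusted p = 0.234). The LT-HSC arrays were 0.55 apart on the log2 scale and the ST-HSC arrays 1.14, wide beside the difference. Eif2b5, the catalytic subunit gene, was at -0.83 (adjusted p = 0.131) by its brightest probe set, Eif2b2 at -0.74 and Eif2b1 at -0.51. Eif2b4 was at 0.09, with overlapping arrays. Of the 5 subunit genes, 0 passed, 2 were lower at unadjusted p under 0.05, 0 were higher, and the median was -0.74 (-0.37 without ST-HSC replicate 3). A second Eif2b5 probe set ran the other way and passed: 36.4 and 60.6 on the LT-HSC arrays, against 5.49 and 13.7 on the ST-HSC arrays, a difference of 1.45 (SE 0.32, adjusted p = 0.0342). It was dim, its ST-HSC values lying below the median intensities of those arrays, 26.9 and 25.9. Over the other settings with all 4 arrays its difference ran between 0.66 and 2.19.

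**Figure D2:**
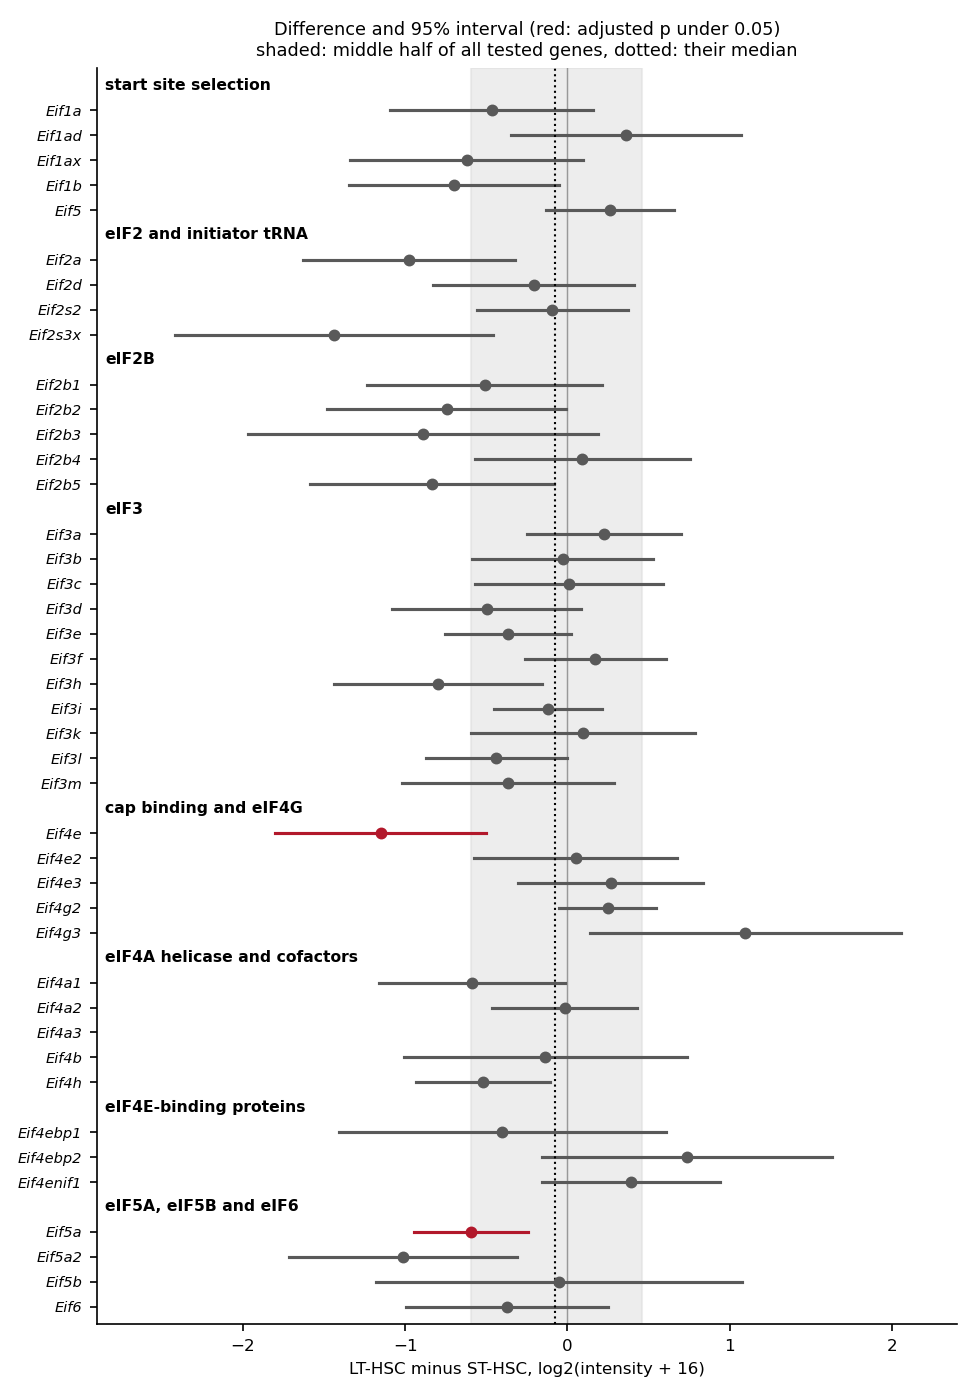
Difference LT-HSC minus ST-HSC on the log2(intensity + 16) scale with its 95% interval for the tested factor genes, grouped by complex, with the range between the quartiles of all tested genes shaded (-0.60 to 0.46) and their median dotted (-0.08). The intervals of 12 genes lie wholly below 0 and that of Eif4g3 wholly above it, while Eif4e and Eif5a pass after adjustment.

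eIF1, eIF1A and eIF5 choose the start codon. Eif1b had 564 and 556 on the LT-HSC arrays, against 705 and 1075 on the ST-HSC arrays, and both LT-HSC arrays lay below both ST-HSC arrays. Its difference was -0.70 (SE 0.27, adjusted p = 0.140). For the paralogs of eIF1A, Eif1a read 638 and 468 on the LT-HSC arrays, against 678 and 786 on the ST-HSC arrays (-0.47, adjusted p = 0.276), and Eif1ax 779 and 799 on the LT-HSC arrays, against 837 and 1487 on the ST-HSC arrays (-0.62, adjusted p = 0.215). In both genes the LT-HSC arrays lay below the ST-HSC arrays. Eif1ad, an eIF1A-like gene, was at 0.36 by its brightest probe set and at -1.08 by its other one. The GTPase-activating factor Eif5 was at 0.26 (adjusted p = 0.334) by its brightest probe set, with 4352 and 3449 on the LT-HSC arrays, against 2736 and 2495 on the ST-HSC arrays. A second Eif5 probe set passed as higher, with 2328 and 2177 on the LT-HSC arrays, against 1054 and 887 on the ST-HSC arrays, a difference of 0.999 (SE 0.21, adjusted p = 0.0313). Of the 5 genes, 0 passed by their brightest probe set, with 1 at unadjusted p under 0.05 as lower and 0 as higher.

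eIF3 is the large platform of many subunits that holds the small subunit and its partners together. The 11 tested genes had a median of -0.12, near the -0.08 of all genes, and none passed, with 2 at unadjusted p under 0.05 as lower and 0 as higher. Eif3h was the farthest out, with 1341 and 1106 on the LT-HSC arrays, against 1437 and 2322 on the ST-HSC arrays, a difference of -0.80 (SE 0.27, adjusted p = 0.101). After normalization both LT-HSC arrays of Eif3h lay below both ST-HSC arrays. Eif3d (-0.50), Eif3l (-0.44), Eif3m (-0.37) and Eif3e (-0.37) followed, and Eif3i was at -0.12. Eif3b (-0.03), Eif3c (0.01), Eif3k (0.10), Eif3f (0.17) and Eif3a (0.23) lay around 0. With median centring the median of the group was 0.18, so its direction depends on the scaling.

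eIF5A acts after initiation, and Eif5a was the other gene that passed. It had 3872 and 3358 on the LT-HSC arrays, against 4279 and 4584 on the ST-HSC arrays. Both LT-HSC arrays lay below both ST-HSC arrays, by a narrow margin in deposited intensity. The difference was -0.59 (SE 0.15, interval -0.94 to -0.24, adjusted p = 0.0466), a level 1.51-fold lower in LT-HSC. A second Eif5a probe set was at -1.16 without passing (adjusted p = 0.132). The brightest probe set carries a suffix that marks probes shared by several transcripts, so signal from related sequences cannot be told apart. Median centring reduced the difference to -0.19 (adjusted p = 0.741), and without normalization it was -0.30 (adjusted p = 0.302). The adjusted p ran between 0.000171 and 0.741 over the 13 alternatives, and 6 passed.

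The paralog Eif5a2 was dim, with 6.77 and 13.5 on the LT-HSC arrays, against 41.3 and 39.8 on the ST-HSC arrays, and its difference of -1.01 did not pass (adjusted p = 0.0707). Eif6, which keeps the large subunit apart from the small one until it is ready, read 536 and 681 on the LT-HSC arrays, against 671 and 852 on the ST-HSC arrays, a difference of -0.37 (SE 0.26, adjusted p = 0.381). Its LT-HSC replicate 2 lay above ST-HSC replicate 2 in deposited intensity. A second Eif6 probe set ran the other way at 0.67 without passing (adjusted p = 0.201). That probe set read 111 and 105 on the LT-HSC arrays, against 68.1 and 69.3 on the ST-HSC arrays. Eif5b, the subunit-joining GTPase, was at -0.05 with ST-HSC arrays 1.42 apart, the widest of any factor gene.

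**Figure D3:**
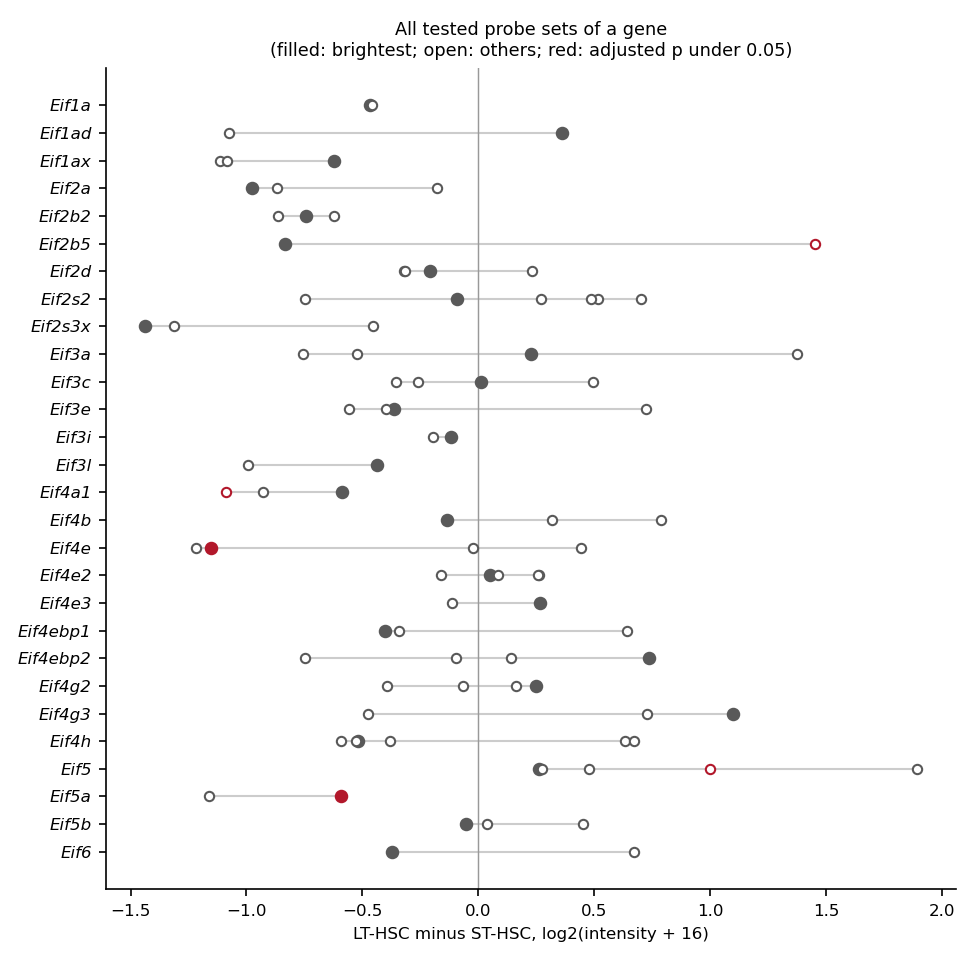
Difference LT-HSC minus ST-HSC on the log2(intensity + 16) scale of every tested probe set of the factor genes, for the genes with several, with the brightest one of each gene filled and those past the threshold in red. Of the 28 genes with several tested probe sets, 18 have probe sets on both sides of 0, some of them dim.

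The probe sets of 1 gene often differed in direction. Besides the brightest ones, 3 probe sets of factor genes passed, those of Eif4a1 (lower), Eif5 and Eif2b5 (both higher), beside 5.48% of all probe sets lower and 6.72% higher. Of the 28 factor genes with several tested probe sets, 18 had differences on both sides of 0, and 10 factor genes had only 1 probe set. The same share among all genes was not counted. Eif3a spanned -0.75 to 1.37, Eif2s2 -0.75 to 0.70 and Eif4h -0.59 to 0.67. Some of these probe sets were dim. That of Eif4h at 0.67 read 23.7 and 59.4 on the LT-HSC arrays, against 71.4 and 0.604 on the ST-HSC arrays. Brighter ones could differ too. An Eif2s2 probe set at 0.48, beside -0.09 for the brightest, read 1082 and 1185 on the LT-HSC arrays, against 582 and 941 on the ST-HSC arrays. Eif5 stood on 1 side, from 0.26 to 1.89 over 5 probe sets. Choosing the brightest probe set therefore decides the direction given for such genes, and with the mean of all probe sets the factor genes' median was -0.03, with Eif5 called higher and Eif1ax called lower in place of the 2 genes above.

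The promoters of Eif4e, Eif5a and Eif4a1 are shown because these are the factor genes with a probe set lower in LT-HSC that passed. A start of each has the E-box CACGTG, a palindrome bound by Myc with Max and by other factors of their class, and the windows shown were chosen for holding it. Of the starts listed, 1 of 2 for Eif4e, 3 of 6 for Eif5a and the 1 for Eif4a1 have it. The sequences are the 250 bases before a RefSeq transcription start in GRCm38.p6, read 5′ to 3′ on the strand of the gene, with the E-boxes in capitals. Those of Eif4e are chr3:138527018-138527267 on the plus strand, of Eif5a chr11:69921387-69921636 on the minus strand and of Eif4a1 chr11:69672424-69672673 on the minus strand.
Eif4e: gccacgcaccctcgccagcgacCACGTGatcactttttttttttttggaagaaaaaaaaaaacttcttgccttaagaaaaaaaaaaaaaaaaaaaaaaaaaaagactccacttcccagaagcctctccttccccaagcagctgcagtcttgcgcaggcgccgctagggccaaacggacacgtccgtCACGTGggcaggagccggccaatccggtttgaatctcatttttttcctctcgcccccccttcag
Eif5a: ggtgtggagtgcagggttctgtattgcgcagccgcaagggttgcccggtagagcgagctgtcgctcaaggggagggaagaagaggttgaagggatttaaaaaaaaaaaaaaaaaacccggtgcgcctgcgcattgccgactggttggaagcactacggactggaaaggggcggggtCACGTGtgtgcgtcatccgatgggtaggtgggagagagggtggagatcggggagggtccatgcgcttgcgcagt
Eif4a1: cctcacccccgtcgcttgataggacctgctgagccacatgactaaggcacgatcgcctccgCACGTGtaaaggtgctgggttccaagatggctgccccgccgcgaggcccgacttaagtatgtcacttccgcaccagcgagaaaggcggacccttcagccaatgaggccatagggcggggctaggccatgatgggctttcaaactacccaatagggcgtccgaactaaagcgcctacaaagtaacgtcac
Eif4e has its E-boxes 228 and 64 bases before the start. Eif5a has one 74 bases before this start, and Eif4a1 one 189 bases before.

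CACGTG reads the same on both strands. It lay in these 250 bases in 8 of the 33 factor genes matched to a RefSeq promoter (24.2%), beside 6.86% of all 27025 genes whose promoters were searched. Among genes tested on the arrays the shares were 8 of 32 (25%) for factor genes and 9.64% of 10363 in all. The other holders were Eif1b, Eif3f, Eif3k, Eif4h and Eif5a2. The median difference was -0.59 for the 8 with an E-box (range -1.15 to 0.17) and -0.07 for the 24 without (range -1.44 to 1.10). Below 0 lay 6 of the 8 and 15 of the 24. Over all tested genes the median was -0.09 in either case. These medians were taken with quantile normalization only. A match of letters is a description of these windows and says nothing of binding in these cells. Pyrimidine runs (CTTTC or CTTCC) were searched between 10 bases before and 20 bases after the start, on the strand of the gene. A run anywhere in this window counted, so a match does not mark an mRNA whose translation follows mTORC1. Such runs lay in 6 of the 32 tested factor genes (18.8%) and in 13.3% of tested genes. The median difference was 0.13 for the 6 with such a run and -0.29 for the 26 without.

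The genes around the initiation factors were listed by role, and 8 of the 81 tested passed, 6 higher (7.41%, beside 7.92% of all genes) and 2 lower (2.47%, beside 6.41%) in LT-HSC. The shares are thus near or below those of all genes. Of 12 genes of the eIF2 kinases and the Atf4 branch that they switch on, 2 were higher and 0 lower, with a median of 0.71 (1.09 when ST-HSC replicate 2 was left out, and 0.38 when replicate 3 was). Eif2ak3 (PERK), the eIF2 kinase of the endoplasmic reticulum, had 383 and 509 on the LT-HSC arrays, against 138 and 133 on the ST-HSC arrays (difference 1.67, adjusted p = 0.0181), and 0.90 with the mean of all probe sets, where it did not pass (adjusted p = 0.0668). Atf5, a transcription factor of the same response, had 87.6 and 63.5 on the LT-HSC arrays, against 25.6 and 14.6 on the ST-HSC arrays (1.46, adjusted p = 0.0480). Its call was lost with no normalization, a pseudocount of 64 (0.79), no filter, no intensity trend and without ST-HSC replicate 3. Trib3 (1.91, adjusted p = 0.0751) and Ppp1r15a (1.46, adjusted p = 0.108) did not pass, and the kinases Eif2ak4 (-0.84), Eif2ak2 (-0.73) and Eif2ak1 (-0.06) lay below 0. In both LT-HSC arrays, where Eif2ak3 was high, the plasma cell markers given above were high too, and the part they have in it was not tested.

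Among 15 genes of mTORC1 and the kinases that act on eIF4E, 1 passed. Mknk1, a kinase that phosphorylates eIF4E, had 1002 and 932 on the LT-HSC arrays, against 467 and 367 on the ST-HSC arrays (difference 1.12, adjusted p = 0.0378). Its call was lost with no intensity trend and with the mean of all probe sets (0.47). Its paralog Mknk2 was at -0.49 without passing. Of 13 poly(A)-binding and recycling partners, 2 were lower. Paip2, an inhibitor of the poly(A)-binding protein, had 1406 and 1264 on the LT-HSC arrays, against 2297 and 2118 on the ST-HSC arrays (-0.94, adjusted p = 0.0246). Pabpc4, a poly(A)-binding protein, had 268 and 241 on the LT-HSC arrays, against 580.5 and 539 on the ST-HSC arrays (-1.09, adjusted p = 0.0471), and Pabpc1 was at -0.68 (adjusted p = 0.0623). The calls of Paip2 (-0.62) and Pabpc4 (-0.99) were both lost with median centring and with no intensity trend. That of Paip2 was also lost with no normalization, and that of Pabpc4 with no filter. With median centring the median of the list was 0.03, against -0.30 with quantile normalization.

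Of 14 elongation and termination factors, Etf1, which releases the finished chain at stop codons, was the one that passed, with 1039 and 946 on the LT-HSC arrays, against 342 and 256 on the ST-HSC arrays (1.66, adjusted p = 0.0125). With the mean of all probe sets Etf1 was at 0.24 (adjusted p = 0.526), and 0 genes of the list were higher and 2 lower. The median of the list was -0.28, and -0.10 without ST-HSC replicate 2. Of 19 aminoacyl-tRNA synthetases, which load amino acids on tRNAs, 2 were higher: Aars (1.25, adjusted p = 0.0273) and Sars (1.23, adjusted p = 0.0282). Aars was at 0.82 with the mean of all probe sets and passed. Farsa was at -1.44 and Nars at 1.31, neither passing, and the group's median was 0.25 (0.46 with median centring and 0.16 without ST-HSC replicate 3). Of 8 mitochondrial translation factors none passed, with 3 lower and 0 higher at unadjusted p under 0.05, and 7 lay below 0, Tufm at -0.85 and Mtrf1l at -0.89 among them (median -0.71, and -0.47 without ST-HSC replicate 3). All 8 calls in these lists were lost when either LT-HSC array was left out. When each of the 4 arrays was left out in turn, the difference ran between 1.49 and 1.88 for Etf1, 1.09 and 1.32 for Sars, 1.12 and 1.43 for Aars, and -1.05 and -0.88 for Paip2.

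**Figure D4:**
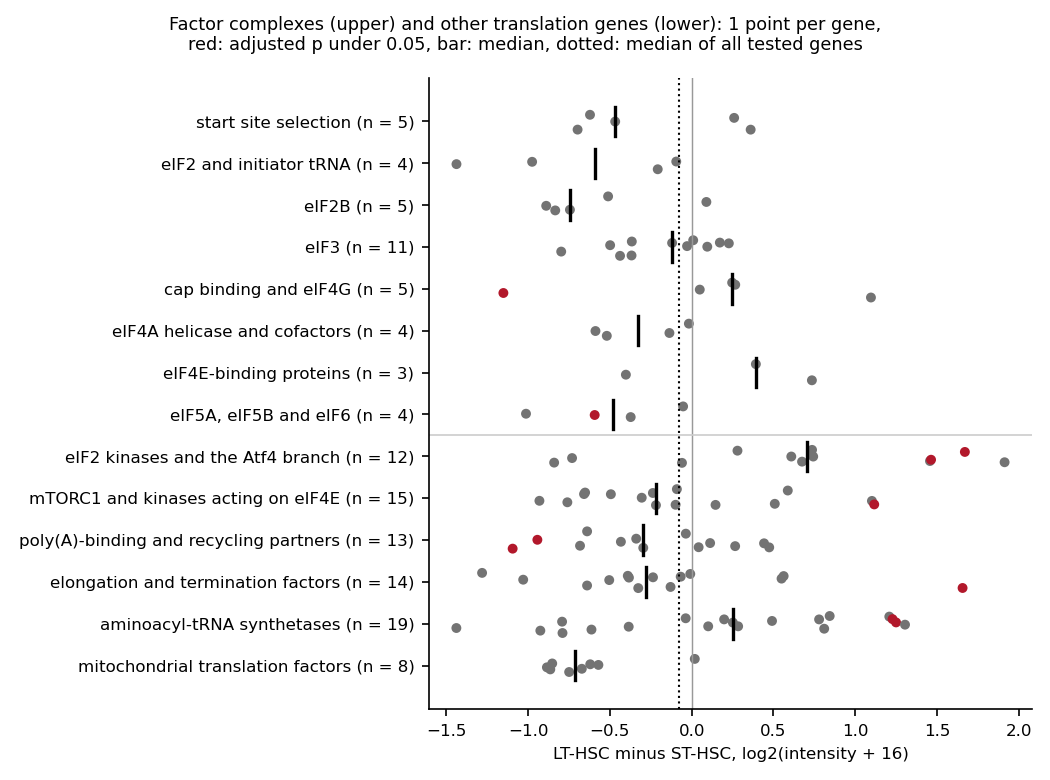
Difference LT-HSC minus ST-HSC on the log2(intensity + 16) scale, 1 point per tested gene, for the 8 factor complexes (upper rows) and 6 other translation lists (lower rows), with each list's median as a bar and red points for genes past the threshold. The eIF2 kinase and Atf4 row has its median at 0.71 and the mitochondrial row at -0.71.

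The arrays themselves set how much of this can be resolved. The ST-HSC arrays were farther apart than the LT-HSC arrays for 31 of 41 factor genes, with median gaps of 0.34 and 0.14 on the log2 scale and largest gaps of 1.42 and 0.55 in ST-HSC and LT-HSC. Without ST-HSC replicate 2 the median difference was -0.30 for the factor genes, beside -0.04 for all genes. Without ST-HSC replicate 3, all 3 arrays came from mice of the same age and time after injection. The medians were then -0.25 for the factor genes and -0.06 for all genes. Without either LT-HSC array, 0 factor genes passed, beside 1.87% of all genes higher and 0.0864% lower without replicate 1, and 1.83% and 0.156% without replicate 2. With 2 arrays a group, the count of calls turns on which array is left out.

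**Figure D5:**
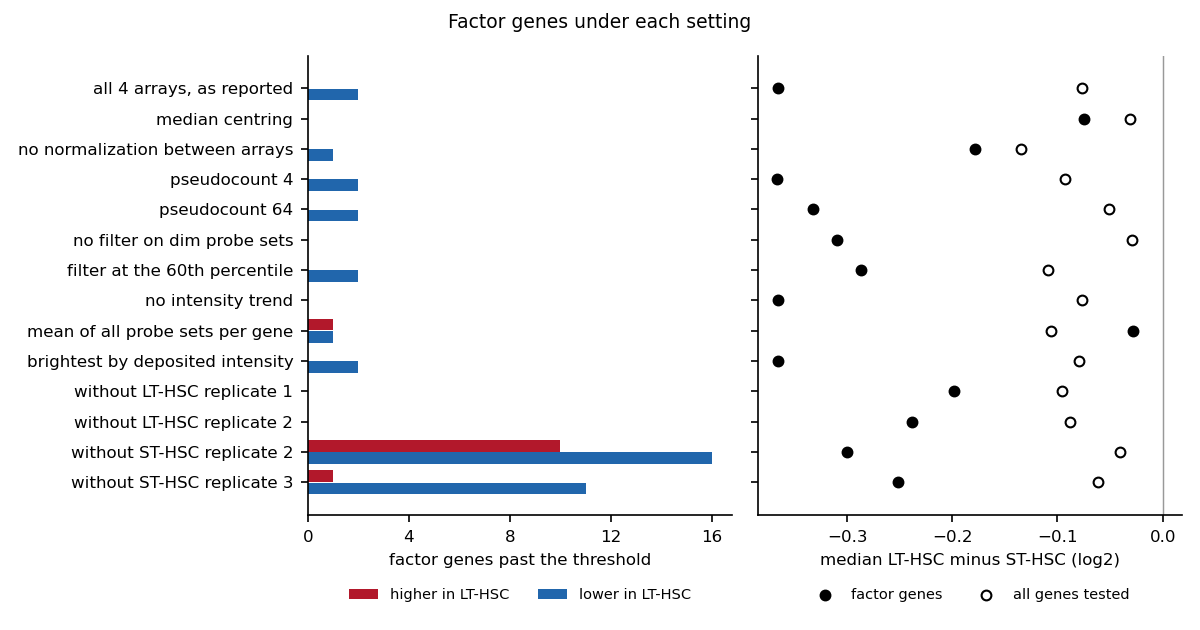
Number of factor genes past the threshold (left, red higher and blue lower in LT-HSC) and median difference LT-HSC minus ST-HSC on the log2 scale (right, filled points factor genes, open points all genes tested) under each setting. With 1 array left out a group rests on a lone array, and the calls among all genes move too, so those bars are not compared. Without ST-HSC replicate 2 the medians are -0.30 for the factor genes and -0.04 for all genes.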

How the data were processed

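The deposited table holds 1 microarray intensity per probe set and array, on a linear scale and with no negative values; the software that made it is not given in the sources used here. Trizol-extracted RNA went through 2 amplification rounds and biotin labelling, per the labels. One part of the mice's genotype, the same in both groups, is not reported here. The 64 control probe sets were left out, 16 was added to every intensity, log2 was taken, and arrays were quantile normalized, because their medians differed by 0.33, over the limit of 0.2. Probe sets with a mean above the 40th percentile were fitted with limma 3.58.1 in R 4.3.3 (lmFit, eBayes with an intensity trend, Benjamini-Hochberg adjustment over 27022 probe sets). The residual degrees of freedom were 2 and the prior 4.84. Median intensities were 19.1 and 28.3 on the LT-HSC arrays and 26.9 and 25.9 on the ST-HSC arrays. With 2 arrays a group an exact permutation test cannot go below p = 0.333. The number of arrays limits the precision. The fit was tested on simulated data.

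Gene symbols came from the platform annotation, in which 34945 probe sets had 1 symbol, 932 several and 9160 none. Each gene is its brightest probe set by mean normalized level. All factor genes may be named; full values are given for those that passed, for the farthest of each complex and for paralog pairs, and of the other lists up to 4 genes of smallest p, with exceptions. The members and lists were chosen with earlier results of these data known. Promoters were matched by symbol to RefSeq (33 of 42). Sequences not of full length and those of a single chromosome were left out beforehand, so an unmatched gene can still have a promoter. Alternatives were median centring, no normalization, other pseudocounts and filters, no trend, other ways to choose a gene's probe set, and leaving out each array.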

Additional observations from a re-analysis of the deposited data

How the results depend on the processing

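The number of factor genes higher in LT-HSC was 0 in most settings, 1 with the mean of all probe sets, and 0 to 10 when 1 array was left out. The number lower was 2, and 0 with median centring, with no filter and with no intensity trend, 1 with no normalization and 1 with the mean of all probe sets, and 0 to 16 when 1 array was left out. Complexes with a gene past the threshold numbered 2, against 0 with median centring, no filter or no trend, and 1 with no normalization or the mean of probe sets. The other translation genes past the threshold numbered 8, 5 with no trend and 0 to 49 when 1 array was left out. The median difference of factor genes was -0.0746 with median centring and -0.0278 with the mean of all probe sets. The cause of these shifts was not tested.

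Signs turned, none past the threshold, with median centring for Eif2s2 (0.22), Eif3b (0.18), Eif3i (0.33), Eif4a2 (0.31) and Eif4b (0.11). With no normalization they turned for Eif2s2 (0.12), Eif3b (0.074), Eif3i (0.23), Eif4a2 (0.20) and Eif4b (0.0045). With the mean of all probe sets they turned for Eif1ad (-0.36), Eif2b5 (0.31), Eif2s2 (0.19), Eif3c (-0.0277), Eif4b (0.32), Eif5b (0.15) and Eif6 (0.15). When 1 array was left out the difference ran between -0.0342 and 0.21 for Eif2b4, -0.23 and 0.0271 for Eif2s2, -0.19 and 0.13 for Eif3b, -0.36 and 0.35 for Eif3c, -0.0777 and 0.40 for Eif3f, and -0.32 and 0.51 for Eif3k. It ran between -0.0865 and 0.0495 for Eif4a2, -0.72 and 0.43 for Eif4b, -0.10 and 0.19 for Eif4e2, -1.06 and 0.23 for Eif4ebp1, and -0.79 and 0.66 for Eif5b. Of these turned signs, Eif3c passed as lower without ST-HSC replicate 3 and Eif4b as higher without ST-HSC replicate 2. Leaving out 1 array of a group leaves the lone array assumed to vary like the other group. No paired analysis was possible because the groups share only replicate number 2. Each value rests on 2 arrays a group, and dim probe sets lie near background.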
